A study of Mus musculus with 6 samples.

Results

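The 44 genes described here act in DNA replication and in the entry of cells into S phase: they license origins, build and run the replisome, supply its nucleotides, assemble chromatin behind the fork and switch G1 cells into S phase. They were taken by symbol from the 56832 genes in the deposited counts, all 44 were found, and all 44 were among the 12488 genes that passed a filter on low counts. RNA sequencing of polyadenylated RNA had profiled cells labelled as monocytes of mouse peripheral blood in 6 libraries. The 3 thrombocytopenic libraries are from PF4cre-iDTR mice: the promoter of Pf4, a megakaryocyte and platelet gene, drives Cre recombinase, and Cre switches on a receptor that makes a cell sensitive to diphtheria toxin. The control group (3 libraries) was WT. Both groups carry Diptheria Toxin (the labels' spelling) as treatment, so platelet loss and genotype cannot be told apart, and the age of the mice is not given in the sources used here. Whether each library stands for its own animal is not stated, so the p-values weigh differences against a spread between libraries that could be technical. The comparison asks how RNA of these genes differed between monocytes of mice with and without thrombocytopenia.

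In G1, the origin recognition complex, Cdc6 and Cdt1 load the Mcm2-7 helicase onto origins, which licenses them. At S-phase entry cyclin E with its kinase helps to activate the helicase by bringing in Cdc45 and the GINS complex, and polymerases, the sliding clamp Pcna and its loader RFC then copy the DNA. Many of these genes are targets of E2F transcription factors, which the Rb family of repressors holds back in cells that do not divide. Most circulating monocytes are regarded as non-dividing, while their bone marrow precursors and some tissue macrophages divide.

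Because E2F control is the textbook link between these genes, RefSeq promoter windows (GRCm38.p6, 250 bases before to 50 after each start) were searched for the letters TTTCCCGC, TTTGCCGC, TTTCGCGC and TTTGGCGC on both strands. Windows were found for 36 of the 44 genes. An E2F-type match was in 14 of the 36 (38.9%), against 4.85% of the 9441 tested genes with a window. The 4 stretches that follow hold the 170 bases before the start, in lower case with the E2F-type letters in capitals. They are shown because Orc1, Mcm6 and Mcm5 were lower in the thrombocytopenic group while Cdc6, with the same kind of match, did not pass the test. Cdc6 had few counts, and its log2 fold change of -0.21 (SE 0.21) was no smaller in size than the -0.18 (SE 0.041) of Mcm5. The difference in call thus does not show that Cdc6 behaved differently. In Mcm6 and in Mcm5 matches on opposite strands overlap and print as 1 run of capitals.
Mcm6 (chr1:128359706-128359875, minus strand): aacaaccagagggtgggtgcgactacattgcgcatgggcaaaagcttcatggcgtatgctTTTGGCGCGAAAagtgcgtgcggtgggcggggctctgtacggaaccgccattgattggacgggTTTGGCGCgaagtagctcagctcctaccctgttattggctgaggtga
Mcm5 (chr8:75109339-75109508, plus strand): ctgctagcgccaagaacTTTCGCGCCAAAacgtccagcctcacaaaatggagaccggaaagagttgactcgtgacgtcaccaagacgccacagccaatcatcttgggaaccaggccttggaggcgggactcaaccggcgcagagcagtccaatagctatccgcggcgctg
Orc1 (chr4:108579284-108579453, plus strand): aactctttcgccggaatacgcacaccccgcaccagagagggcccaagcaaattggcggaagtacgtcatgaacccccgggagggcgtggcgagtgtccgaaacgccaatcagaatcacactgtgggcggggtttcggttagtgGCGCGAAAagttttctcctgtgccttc
Cdc6 (chr11:98907981-98908150, plus strand): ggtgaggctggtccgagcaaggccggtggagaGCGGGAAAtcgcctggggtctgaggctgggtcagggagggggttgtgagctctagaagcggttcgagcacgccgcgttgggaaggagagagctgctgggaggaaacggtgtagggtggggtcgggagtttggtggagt

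Most of the replication genes were lower in the thrombocytopenic libraries, mainly by small amounts. Of the 44 members 27 fell, 1 (Pola2) rose and 16 did not pass the test, by edgeR's quasi-likelihood test at a Benjamini-Hochberg adjusted p under 0.05 over all 12488 genes. Among all genes tested 45.1% passed the test, 22.7% as lower and 22.4% as higher, against 61.4% lower and 2.27% higher among the members. The members' median log2 fold change was -0.23, beside a median of -0.00077 over all genes tested, and 39 of 44 had a negative value. In 25 members the 3 thrombocytopenic libraries lay wholly below the 3 control libraries, which was so for 26.0% of all genes tested, and in 2 members they lay wholly above (25.2% of all genes). Falls of at least 1.5-fold were found in 4 members (Cdt1, Orc1, Ccne1 and Cdc45), 9.09% of the list against 6.83% of all genes tested. The share of falls of this size was near the background. Summed over the list, the 44 genes took 862 ± 5.24 CPM (a gene's counts scaled to a common library size; mean ± SD, n = 3) in the thrombocytopenic and 1037 ± 5.83 CPM in the control libraries. In bulk RNA fewer dividing cells and less RNA per dividing cell cannot be told apart.

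**Figure D1:**
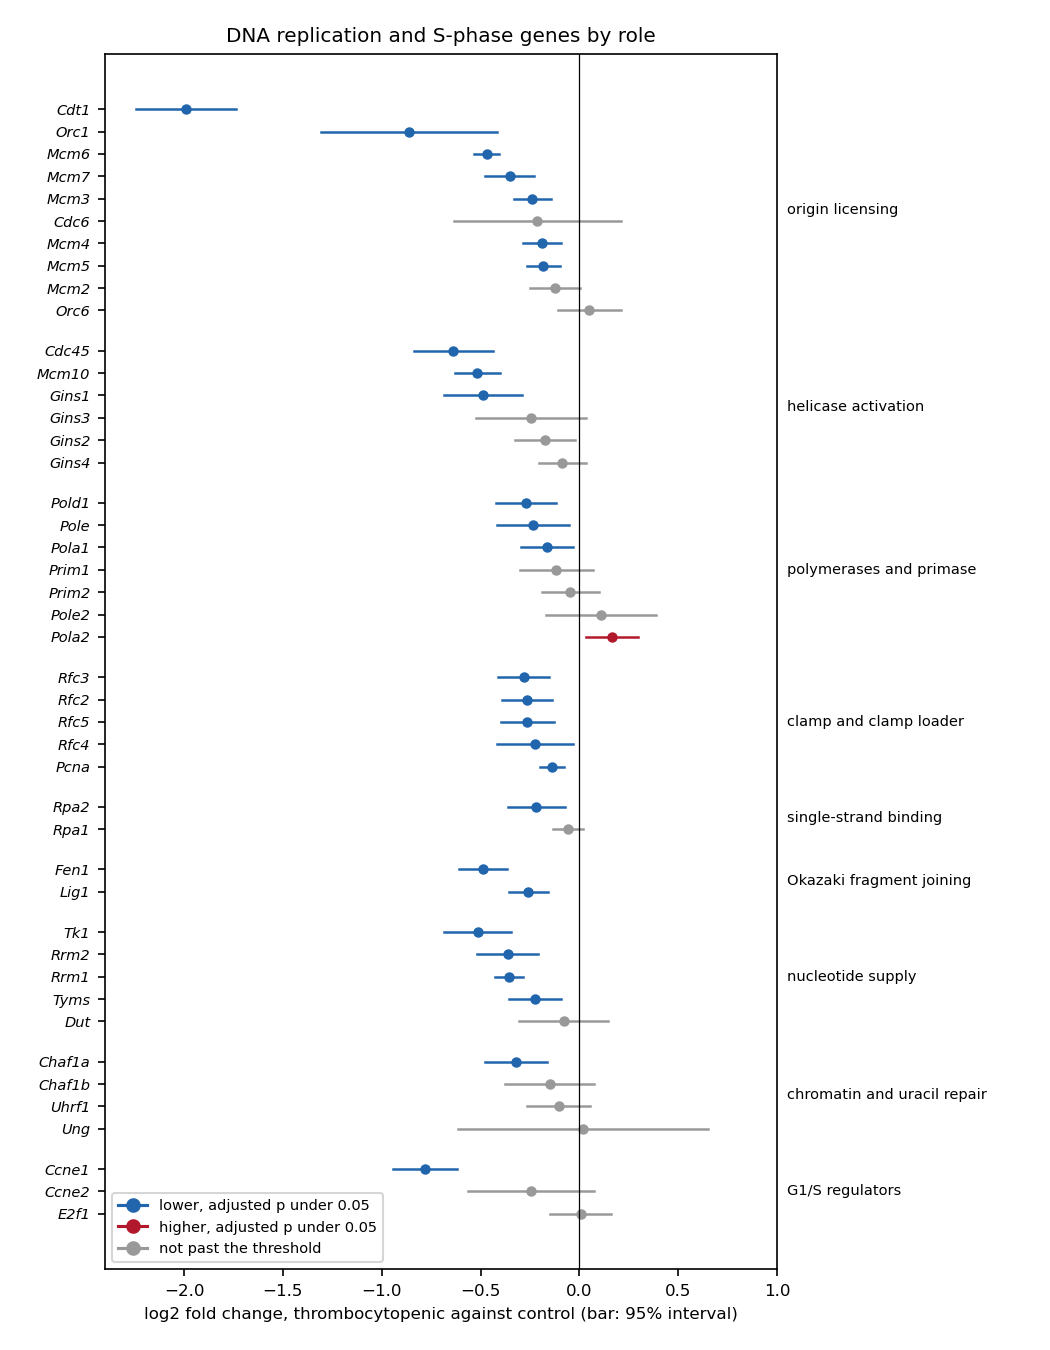
Fitted log2 fold change of each of the 44 genes (x axis, thrombocytopenic against control) with its 95% interval, grouped by role and coloured by whether it passed the threshold. Cdt1 stands at -1.99, 27 genes are coloured as lower, and Pola2 at 0.17 is the 1 gene coloured as higher.

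Of the 10 genes of origin licensing, 7 fell (70%, against 22.7% of all genes tested), none rose and 3 (Orc6, Cdc6 and Mcm2) did not pass the test. Cdt1, the factor that brings the Mcm2-7 helicase to origins and that geminin inhibits, had the largest fall of the list. Its levels were 3.54, 3.42 and 3.10 CPM in the thrombocytopenic libraries and 14.1, 15.2 and 10.5 CPM in the control libraries. All 3 thrombocytopenic libraries lay at less than the lowest control library by a wide margin, and control replicate 3 was the lowest of its group. The fitted log2 fold change was -1.99 (SE 0.122; edgeR adjusted p = 5.9e-13), or 3.97-fold lower. In its promoter window the E2F-type letters lie after the start rather than before it, in a stretch shown because Cdt1 moved most (chr8:122568039-122568064, plus strand, matching letters in capitals).
Cdt1: actaccttTTTGGCGCcatggcgcaa

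Orc1, the largest subunit of the origin recognition complex, had 0.911, 1.07 and 0.951 CPM against 1.41, 2.03 and 1.81 CPM in the control libraries, from 32 to 73 counts in each library. The groups did not overlap, and the log2 fold change was -0.86 with a wide 95% interval of -1.31 to -0.42 (edgeR adjusted p = 0.00102). Orc6, another subunit of that complex, was at 10.6, 10.02 and 11.3 CPM against 10.5, 9.53 and 11.0 CPM, with overlapping groups and an interval of -0.11 to 0.21. Exons of Orc6 share up to 114 bases with the far more abundant Vps35 on the opposite strand (386 CPM against 371 CPM). Whether counting was by strand is not given, so Orc6 is uncertain. Cdc6, the ATPase that works with Cdt1, had 1.31, 1.17 and 1.65 CPM against 1.77, 1.69 and 1.36 CPM. The groups overlapped, and the interval of -0.64 to 0.21 is wide enough that a change of the median member's size was not detectable.

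The 6 subunits of the Mcm2-7 helicase work as 1 ring, and 5 of them fell (22.7% of all genes tested did). Mcm6 had the smallest p of the licensing genes, with 97.3, 92.1 and 97.5 CPM against 132, 134 and 131 CPM. These groups were separated by far more than their spread (log2 fold change -0.47, SE 0.032; edgeR adjusted p = 1.89e-18). Mcm7 fell by 0.35, Mcm3 by 0.24, Mcm4 by 0.19 and Mcm5 by 0.18 on the log2 scale. Mcm2 was at 15.5, 15.1 and 15.5 CPM against 17.1, 17.3 and 15.9 CPM; its groups did not overlap, but it did not pass the test (-0.12, interval -0.25 to 0.01; edgeR adjusted p = 0.115). Within the same libraries, Mcm2 had 0.160, 0.164 and 0.159 counts for each Mcm6 count in the thrombocytopenic group and 0.129, 0.129 and 0.122 in the control group. This ratio does not depend on the scaling of the libraries, and it did not overlap between the groups. The ratios of Mcm3 to Mcm5 (0.814 ± 0.053 against 0.845 ± 0.046) and of Mcm4 to Mcm7 (1.91 ± 0.046 against 1.72 ± 0.145) did overlap (mean ± SD, n = 3). Per kilobase of annotated exon (GENCODE M21), control levels of the helicase subunits ran from 4.97 CPM per kb for Mcm2 through 7.30 for Mcm7, 10.3 for Mcm4, 14.4 for Mcm3 and 15.01 for Mcm5 to 30.3 for Mcm6.

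The licensed helicase is switched on by Cdc45, GINS and Mcm10, and 3 of these 6 genes fell (50%, against 22.7% of all genes tested). Cdc45, which binds the helicase as its activator, had 5.14, 4.79 and 4.84 CPM against 7.96, 7.64 and 7.46 CPM. Mcm10, which helps to start the active helicase and holds polymerase alpha at the fork, had 18.1, 17.9 and 18.6 CPM against 27.6, 24.9 and 25.9 CPM. For both genes every thrombocytopenic library lay below every control library, and the log2 fold changes were -0.64 (SE 0.099) and -0.52 (SE 0.057). Among the 4 GINS subunits, Gins1 fell by 0.49 on the log2 scale, while the others did not pass the test. Gins4 was at 19.5, 19.2 and 20.1 CPM against 21.3, 19.7 and 21.8 CPM (interval -0.20 to 0.03). Gins3 had 3.19, 3.55 and 2.74 CPM against 3.70, 3.44 and 4.08 CPM, with overlapping groups. Gins2 was at 11.4, 11.97 and 10.3 CPM against 12.8, 11.7 and 13.5 CPM (-0.17; edgeR adjusted p = 0.0597). Without thrombocytopenic replicate 2 or without control replicate 2, Gins2 passed the test (edgeR adjusted p = 0.0324 and 0.0228). Exons of Gins2 overlap those of Gse1 on the opposite strand by up to 2758 bases, and Gse1 itself fell (21.3 to 14.9 CPM). Whether the authors counted by strand is not given in the sources used here, so Gins2 is uncertain.

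Of the 7 genes of DNA polymerases and primase, 3 fell (42.9%, against 22.7% of all genes tested), 1 rose (14.3%, against 22.4%) and 3 did not pass the test. Pold1, the catalytic subunit of polymerase delta, which makes the lagging strand, had 10.2, 10.3 and 10.2 CPM against 11.7, 12.1 and 13.1 CPM. Its groups did not overlap (log2 fold change -0.27, SE 0.075; edgeR adjusted p = 0.00273). Pole, the catalytic subunit of polymerase epsilon on the leading strand, had 7.85, 9.95 and 8.70 CPM against 8.84, 10.7 and 11.3 CPM. Pola1, the catalytic subunit of polymerase alpha, had 16.8, 15.4 and 18.8 CPM against 17.7, 19.3 and 20.1 CPM. Both passed the test (-0.24 and -0.16) although their groups overlapped; by DESeq2 neither did (adjusted p = 0.187 for Pole and 0.189 for Pola1). Pole lost its call without thrombocytopenic replicate 1 (edgeR adjusted p = 0.215) or 3 (0.0688) and without control replicate 2 (0.124) or 3 (0.179). Pola1 lost it without thrombocytopenic replicate 1 (0.106) or 2 (0.242) and without control replicate 2 (0.103) or 3 (0.183).

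Pola2, the regulatory subunit that pairs with Pola1, was the 1 member that rose. It had 16.7, 17.0 and 16.4 CPM against 15.9, 14.6 and 14.3 CPM, without overlap between the groups (log2 fold change 0.17, SE 0.065; edgeR adjusted p = 0.0322). The call was lost without thrombocytopenic replicate 1 (0.0629) or 2 (0.0738), without control replicate 2 (0.118) or 3 (0.140), and by DESeq2 (adjusted p = 0.136). The Pola1 to Pola2 count ratio was 1.01, 0.906 and 1.14 against 1.11, 1.32 and 1.41, and the groups overlapped. Pole2, the second subunit of polymerase epsilon, had 3.19, 3.45 and 3.16 CPM against 2.93, 3.11 and 3.00 CPM. Its thrombocytopenic libraries all lay above the control libraries, yet it did not pass the test and its interval of -0.17 to 0.39 reached both directions. The primase subunits Prim1 (7.53, 7.37 and 7.44 CPM against 8.52, 8.53 and 7.15 CPM) and Prim2 (15.6, 15.5 and 12.7 CPM against 14.1, 15.4 and 15.5 CPM), which lay the RNA primers, overlapped between the groups and did not pass the test.

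**Figure D2:**
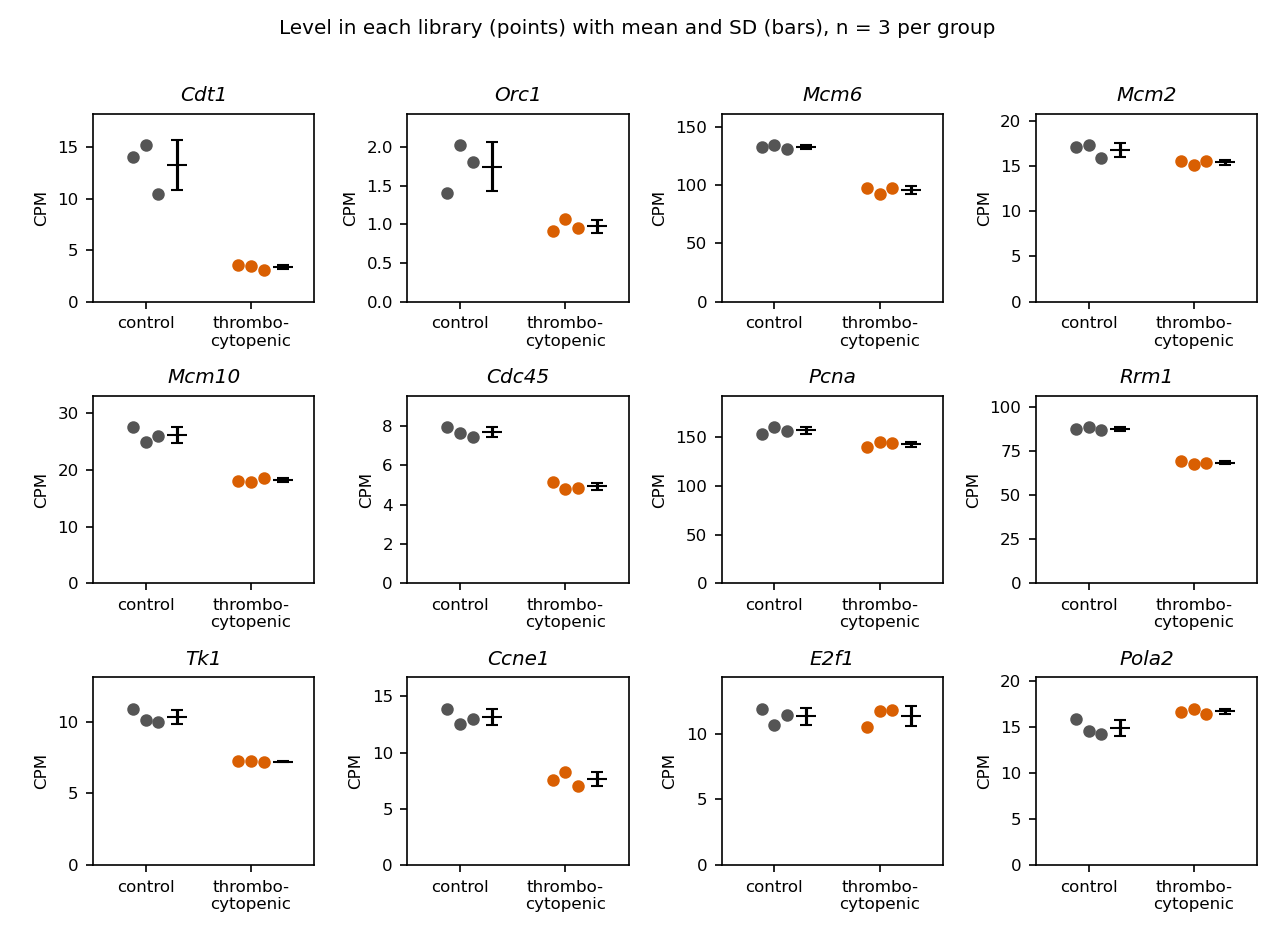
Level in CPM (y axis, from 0) of 12 of the genes in each of the 6 libraries, with the mean and SD of each group beside the points. The thrombocytopenic points of Cdt1 lie between 3.10 and 3.54 CPM, below all control points, while those of E2f1 lie among the control points and those of Pola2 above them.

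All 5 genes of the sliding clamp and its loader fell (22.7% of all genes tested did), each by less than 1.5-fold. Pcna, the clamp that holds polymerases on DNA, had the highest control level per kilobase of the 44 genes (103 CPM per kb). It stood at 139, 145 and 144 CPM against 153, 160 and 157 CPM, without overlap (log2 fold change -0.14, SE 0.030; edgeR adjusted p = 0.000132). Rfc3, a subunit of the loader that opens the clamp, had 15.1, 15.2 and 13.8 CPM against 17.4, 17.9 and 18.3 CPM (-0.28). Rfc2 fell by 0.27, Rfc5 by 0.26 and Rfc4 by 0.22 on the log2 scale. Rfc4 was at the threshold (edgeR adjusted p = 0.0494) and lost its call without thrombocytopenic replicate 1 (0.222) or 2 (0.122) or control replicate 1 (0.142) or 3 (0.124), and by DESeq2 (adjusted p = 0.204). Exons of Rfc2 overlap those of Lat2 on the opposite strand by up to 952 bases, and Lat2 fell as well (67.6 to 53.2 CPM), so Rfc2 is uncertain in the same way as Gins2. The same holds for Rfc5, which shares up to 499 bases with the more abundant Wsb2 on the opposite strand, and Wsb2 fell too (118 to 104 CPM, -0.19).

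Of the genes that bind single-stranded DNA, Rpa2 had 12.2, 11.3 and 11.2 CPM against 13.8, 12.8 and 14.0 CPM and fell by 0.22 on the log2 scale (edgeR adjusted p = 0.0108). That call was lost without thrombocytopenic replicate 3 (0.0535) or control replicate 3 (0.0534), and by DESeq2 (adjusted p = 0.0827). Rpa1, the large subunit of the same complex, was at 59.2, 59.3 and 62.0 CPM against 61.8, 62.3 and 64.0 CPM and did not pass the test; its interval of -0.14 to 0.02 leaves room for a fall of at most 0.14. Both genes that finish Okazaki fragments fell (22.7% of all genes tested did). Fen1, the nuclease that trims the flaps, had 19.3, 16.5 and 18.5 CPM against 25.9, 26.7 and 23.7 CPM, and Lig1, the ligase that seals the nicks, had 27.1, 28.0 and 29.4 CPM against 33.0, 33.4 and 34.6 CPM. Neither overlapped between the groups (log2 fold change -0.49, SE 0.060, and -0.26, SE 0.050).

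Enzymes that supply deoxynucleotides fell in 4 of 5 cases (80%, against 22.7% of all genes tested). Rrm1, the large subunit of ribonucleotide reductase, had 69.2, 67.4 and 68.2 CPM against 87.1, 88.6 and 86.5 CPM. The spread within each group was small next to this gap (log2 fold change -0.36, SE 0.035; edgeR adjusted p = 1.01e-12). Its partner Rrm2, the subunit made in S phase, fell by the same amount (-0.36, SE 0.076), and the ratio of Rrm1 to Rrm2 counts was 6.90 ± 0.503 in the thrombocytopenic and 6.86 ± 0.253 in the control group (mean ± SD, n = 3). Tk1, the thymidine kinase of dividing cells, had 7.23, 7.24 and 7.21 CPM against 10.9, 10.2 and 9.97 CPM (-0.51, SE 0.085). Tyms, thymidylate synthase, fell by 0.23. Dut, which removes dUTP from the pool, was at 4.88, 4.32 and 5.23 CPM against 4.90, 5.08 and 5.30 CPM, with overlapping groups and an interval of -0.30 to 0.15.

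Of the chromatin genes and the uracil glycosylase Ung, 1 of 4 fell (25%, near the 22.7% of all genes tested). Chaf1a, the large subunit of the assembly factor CAF-1 that places histones behind the fork, had 9.57, 10.1 and 11.1 CPM against 13.9, 12.5 and 12.03 CPM, without overlap (log2 fold change -0.32, SE 0.077). Exons of Chaf1a share up to 1277 bases with Ubxn6 on the opposite strand (40.4 CPM against 38.3 CPM), so Chaf1a is uncertain in the same way as Gins2. Its partner Chaf1b had 5.09, 4.46 and 4.42 CPM against 5.47, 5.03 and 5.09 CPM, and 1 thrombocytopenic library lay within the control range (-0.15, interval -0.37 to 0.08). Uhrf1, which guides maintenance of DNA methylation, was at 10.4, 9.72 and 9.62 CPM against 10.3, 11.4 and 10.2 CPM and did not pass the test (-0.10, interval -0.26 to 0.05). Ung, with 13 to 26 counts in each library, had 0.616, 0.469 and 0.727 CPM against 0.522, 0.583 and 0.697 CPM. Its groups overlapped, and its interval of -0.61 to 0.65 is wide enough that a change of the median member's size was not detectable.

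Among the G1/S regulators, Ccne1, which encodes cyclin E1, had 7.56, 8.31 and 7.05 CPM against 13.9, 12.5 and 13.0 CPM. All thrombocytopenic libraries lay below all control libraries (log2 fold change -0.78, SE 0.081; edgeR adjusted p = 7.01e-12). Ccne2, for the related cyclin E2, had 2.36, 2.25 and 2.29 CPM against 2.33, 3.17 and 2.58 CPM and did not pass the test (-0.25, interval -0.56 to 0.07). There were 3.20, 3.70 and 3.07 Ccne1 counts for each Ccne2 count in the thrombocytopenic libraries against 5.97, 3.96 and 5.03 in the control libraries, without overlap. Exons of Ccne2 share up to 201 bases with the more abundant Ints8 on the opposite strand, and Ints8 rose (67.1 to 76.6 CPM, 0.19). Ccne2 and this ratio are therefore uncertain in the same way as Gins2. E2f1, the transcription factor that many of these genes answer to, was at 10.5, 11.7 and 11.9 CPM against 11.9, 10.7 and 11.4 CPM. Its groups overlapped, and its log2 fold change of 0.01 had an interval of -0.15 to 0.16.

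**Figure D3:**
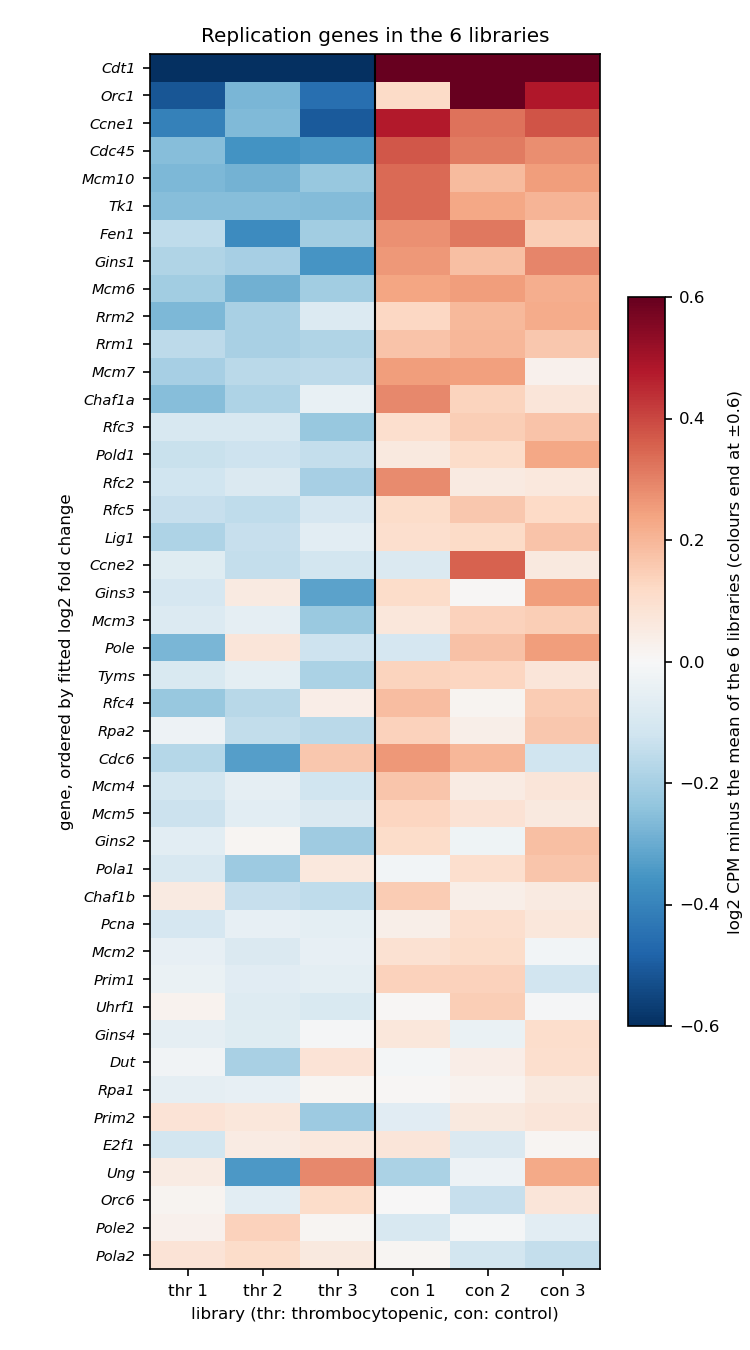
Log2 CPM of the 44 genes (rows, largest fall at the top) in the 6 libraries (columns), each gene centred on its mean over the libraries; colours end at ±0.6. The 3 thrombocytopenic columns are blue and the 3 control columns red for most rows, and the lowest rows, from Prim2 to Pola2, show no such split or the opposite one.

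The 6 libraries split by group over the list as a whole. The median of the centred log2 levels was -0.11, -0.14 and -0.12 in the thrombocytopenic libraries and 0.11, 0.12 and 0.13 in the control libraries. Within groups the SD of log2 CPM was 0.077 at the median member and ran from 0.018 for Rrm1 to 0.270 for Ung. Across the 44 genes, log2 control level and log2 fold change had a Pearson r of -0.027 and a Spearman rho of -0.113, a description over genes of the same libraries. Exons of 16 members overlap exons of another annotated gene, 14 of them on the opposite strand, and counts of these 16 are uncertain to that extent. They are Orc1, Orc6, Mcm7, Cdc45, Gins2, Pole, Pole2, Rfc2, Rfc4, Rfc5, Rpa1, Fen1, Lig1, Tk1, Chaf1a and Ccne2. Cdt1, Mcm6, Rrm1 and Ccne1 are not among them.

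Other genes of the pathway, in lists compiled with earlier results of these data known, showed how far the pattern went. Of 38 other replication factors 13 fell (34.2%, against 22.7% of all genes tested) and 2 rose (5.26%, against 22.4%), with a median of -0.11. Timeless, a fork protection factor, fell from 39.1 ± 0.707 to 26.1 ± 1.601 CPM (-0.58 on the log2 scale), and the Pcna partner Pclaf fell from 29.6 ± 1.30 to 22.2 ± 0.098 CPM (-0.42; mean ± SD, n = 3). The genes that rose were Top1, a topoisomerase that also serves transcription (148 ± 3.21 to 193 ± 11.9 CPM), and Pole4, a small subunit of polymerase epsilon (0.14). Their number was 1 without thrombocytopenic replicate 3 or control replicate 2. The fall of Ticrr, which helps to fire origins and was chosen after its values were seen, was 0.81 on the log2 scale, while the inhibitor of Cdt1, Gmnn (geminin, chosen likewise), had 4.36 ± 0.779 CPM against 5.07 ± 0.283 CPM (-0.21, interval -0.45 to 0.03; edgeR adjusted p = 0.156). Among the ORC subunits outside the list, also named afterwards, Orc2, Orc3, Orc4 and Orc5 missed the threshold, with log2 fold changes from -0.0036 for Orc5 to 0.07 for Orc3.

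Of 18 nucleotide supply genes outside the list 3 fell and 3 rose (16.7% each, under the 22.7% and 22.4% of all genes tested), with a median of -0.07. Samhd1, which breaks down deoxynucleotides in non-dividing cells, fell from 1176 ± 19.0 to 1088 ± 22.9 CPM (-0.11), and Dck, deoxycytidine kinase, fell by 0.11. Impdh2 and Paics, of purine synthesis, rose by 0.14 and 0.10 on the log2 scale. Without thrombocytopenic replicate 3 the number of lower genes was 5.

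Of 30 tested E2F, Rb and cyclin-CDK genes 10 fell (33.3%, against 22.7% of all genes tested) and 8 rose (26.7%, against 22.4%), with a median of -0.08. Both shares were above those of all genes tested, so the list did not move in 1 direction. Of the 3 D-type cyclin genes 2 fell, Ccnd1 from 18.9 ± 1.34 to 9.79 ± 1.13 CPM (-0.96 on the log2 scale) and Ccnd2 from 76.3 ± 3.93 to 49.3 ± 1.27 CPM (-0.62). Cdkn1a, which encodes the CDK inhibitor p21, rose from 1395 ± 14.1 to 1909 ± 66.5 CPM (0.45, SE 0.024), and the kinase gene Cdk6 rose by 0.27. The following were chosen after their values were seen. The D-type cyclin gene that rose was Ccnd3 (29.4 ± 0.866 to 36.3 ± 0.840 CPM, 0.30). E2f2 fell from 2.21 ± 0.311 to 0.893 ± 0.150 CPM (-1.31), E2f6, a repressor of the family, rose from 17.3 ± 1.30 to 20.3 ± 0.367 CPM (0.22), and E2f3, E2f4, E2f5, E2f7 and E2f8 did not pass the test. Of the Rb family, Rb1 and Rbl2 rose by 0.25 and 0.18, and Rbl1 fell by 0.42.

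In the replication checkpoint and fork repair list, 11 of 20 genes fell (55%, against 22.7% of all genes tested) and 1 rose (5%, against 22.4%), with a median of -0.43. Wee1, the kinase that restrains CDKs, fell from 4.65 ± 0.154 to 1.99 ± 0.137 CPM (-1.23), and Brca1 fell by 0.70 on the log2 scale. Rad17, which loads the checkpoint clamp, rose by 0.13; that call was lost without thrombocytopenic replicate 1 or control replicate 3, which left 0 genes higher. By DESeq2 no gene of the list was higher either. Genes of mitosis and G2/M fell in 22 of 22 cases (100%, against 22.7% of all genes tested), with a median of -0.56 and a range from -0.79 to -0.37. Beside them the replication genes had 27 of 44 lower and a median of -0.23; the difference between the lists was not tested. Values of the 2 lists come from the same libraries, and the mitosis genes shown by smallest p are Top2a and Bub1b (-0.55 and -0.79).

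**Figure D4:**
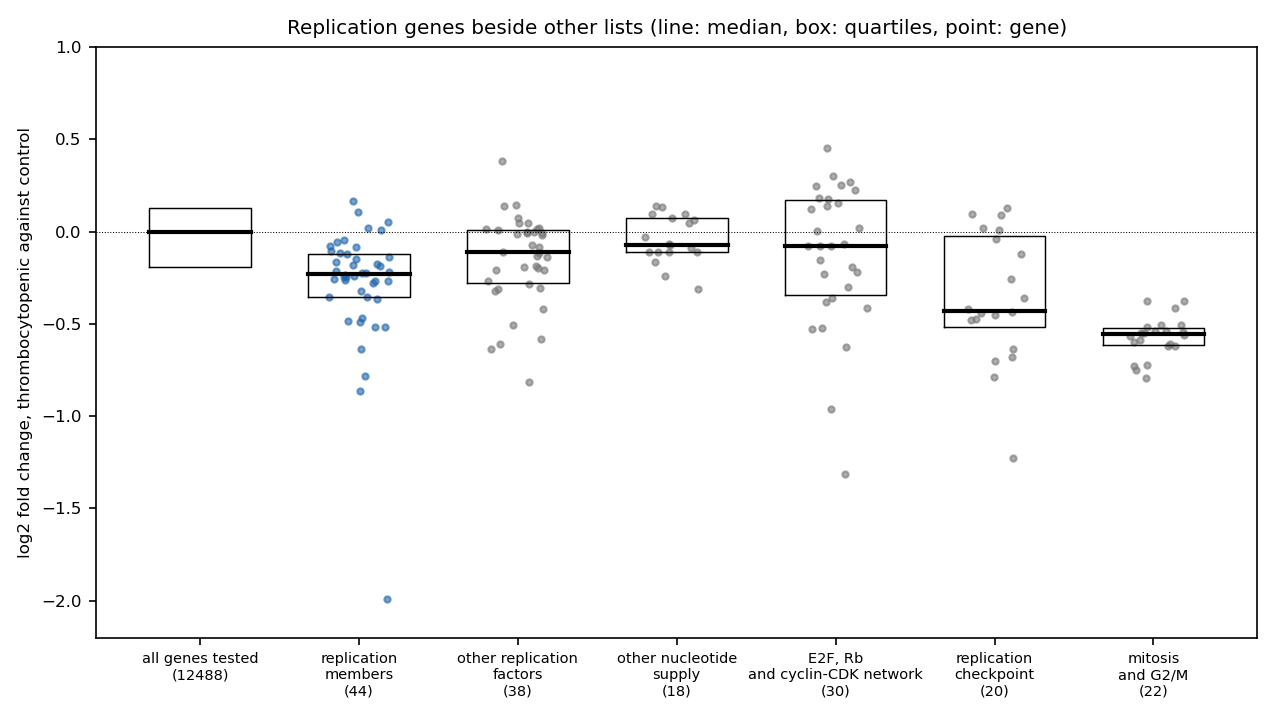
Fitted log2 fold change (y axis) of each tested gene in the replication list and in the 5 other lists, with the median as a line and the quartiles as a box; all genes tested are shown by median and quartiles alone. The mitosis genes lie between -0.79 and -0.37, and the replication genes spread from -1.99 to 0.17.

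The promoter windows differed between these lists in the letters they hold. E2F-type letters were found in 10 of the 23 replication genes with a window that fell (43.5%) and in 4 of the 12 that did not pass the test (33.3%). They were in 1 of 18 mitosis genes with a window (5.56%). A CCAAT box, the letters bound by NF-Y, was in 20 of the 36 replication genes (55.6%), in 16 of the 18 mitosis genes (88.9%) and in 43.3% of the tested genes with a window. The letters TTTGAA, which match a common form of the cell cycle genes homology region of G2/M promoters, were in 4 of the 36 (11.1%), in 13 of the 18 (72.2%) and in 14.6%. All motifs were searched on both strands, base composition was not matched between lists, and a match says nothing of binding. Matches in the printed Mcm6 stretch lie 110, 106 and 47 bases before the start.

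**Figure D5:**
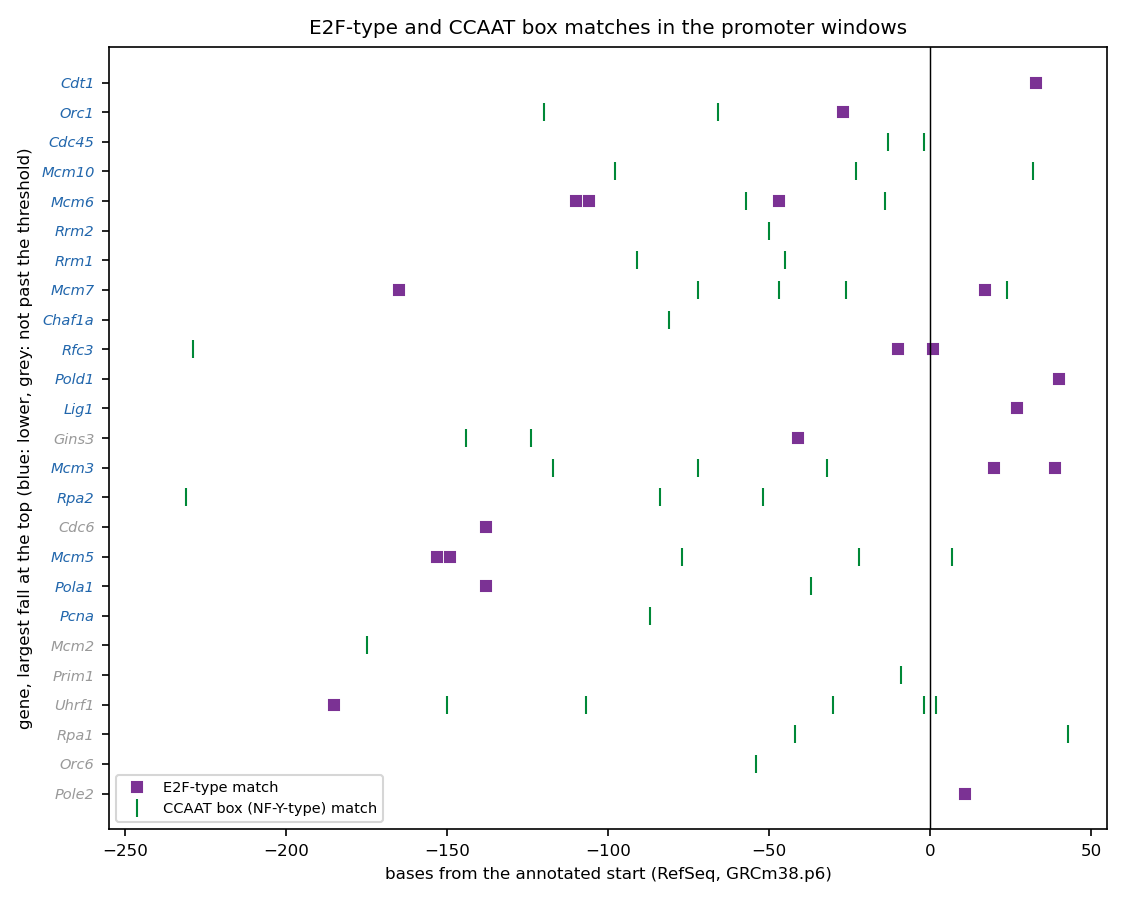
Places of E2F-type and CCAAT box matches (x axis, bases from the annotated start) in the promoter windows of the replication genes that hold at least 1 of them, ordered by fold change with the largest fall at the top. Squares of E2F-type matches stand beside names in blue (lower) and in grey (not past the threshold), 10 and 4 genes.

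Library totals ran from 24842319 to 37552029 counts, TMM factors from 0.9943 to 1.002, and no library stood apart in the list. All 12 monocyte markers were detected, with a summed level of 21732 to 21993 CPM in the thrombocytopenic and 19264 to 19661 CPM in the control libraries. Most of that sum was Lyz2. Of the 12 markers 7 were higher (58.3%, against 22.4% of all genes tested) and 4 lower (33.3%, against 22.7%). The largest change in the list was in Cx3cr1, a marker of a monocyte subset, at 11.4 ± 0.374 CPM against 52.2 ± 1.10 CPM (log2 fold change -2.19, edgeR adjusted p = 7.36e-38). The relation of Cx3cr1 to the replication genes was not tested. Adgre1 stood at 3285 CPM against 2712 CPM and Csf1r at 1481 CPM against 1229 CPM. Ccr2 was at 97.8 CPM against 83.2 CPM and Ly6c2 at 67.9 CPM against 95.1 CPM. Whether the cells match their label was not tested. Progenitor markers fell in 5 of 7 tested of 9 listed genes (71.4%, against 22.7% of all genes tested) and rose in 1 (14.3%, against 22.4%). Their summed level, mostly Cd48, was 168 to 178 CPM against 186 to 205 CPM. Kit stood at 1.27 CPM against 2.84 CPM and Cd34 at 2.33 CPM against 3.89 CPM, and Mycn and Hoxa9 were near 0. Meis1, the 1 that rose, stood at 1.83 CPM against 1.02 CPM. Myb, at 2.16 CPM against 1.64 CPM, did not pass the test. Dendritic cell markers fell in 6 of 7 tested of 9 (85.7%, against 22.7% of all genes tested). Their summed level was 233 to 240 CPM against 315 to 329 CPM, mostly from Bst2 (213 CPM against 280 CPM). Ccr7 stood at 15.2 CPM against 28.0 CPM, Siglech at 0.313 CPM against 1.39 CPM and Zbtb46 at 0.414 CPM against 1.21 CPM. Of those tested, Clec9a alone missed the threshold. Zbtb46, Xcr1, Clec9a, Siglech and Cd209a were under 1 CPM on average over the 6 libraries, though Siglech and Zbtb46 were above it in the control group. Basophil and mast cell markers fell in 4 of 5 tested of 8 (80%, against 22.7% of all genes tested). Their summed level was 92.0 to 97.8 CPM against 98.2 to 100.1 CPM, nearly all from Hdc, which did not pass the test. Mcpt8 stood at 0.118 CPM against 2.27 CPM. The part of these 3 lists in the lower replication genes was not tested. Granulocyte precursor markers summed to 6.74 to 8.71 CPM against 5.31 to 6.40 CPM, almost all from Gfi1, with Elane, Mpo and 5 others of the 8 under 1 CPM. T and NK cell markers summed to 0.756 to 0.959 CPM against 1.09 to 1.85 CPM, and Cd3d, Cd3e, Cd3g and Ncr1 were at 0 in all 6 libraries. B cell markers summed to 1.07 to 1.67 CPM against 1.26 to 1.85 CPM, mostly from Cd79b, with Vpreb3 at 0. Erythroid markers summed to 139 to 149 CPM against 137 to 145 CPM, mostly from Tfrc, with Alas2 at 0. Of the 3 erythroid markers tested 1 fell (33.3%, against 22.7% of all genes tested). It was Hba-a1, with 55, 62 and 63 counts in the control libraries and 0 in each thrombocytopenic library. The part of Hba-a1 in the result was not tested either. Neutrophil markers summed to 326 to 338 CPM against 233 to 248.55 CPM, mostly from Mmp8, with Ly6g under 1 CPM. Of the 6 tested of 9, only Mmp8 rose (16.7%, against 22.4% of all genes tested), and the log2 fold change was negative in 5. The higher sum thus came from Mmp8 and does not give the direction of the list. Ngp alone was called lower (16.7%, against 22.7% of all genes tested), from 1.46 to 0.747 CPM with overlapping groups, and 4 missed the threshold. Platelet markers summed to 1220 to 1286 CPM against 1012 to 1058 CPM, mostly from Pf4, whose promoter drives Cre (1095 CPM against 924 CPM), and Ppbp. These 2 rose (33.3%, against 22.4% of all genes tested), while the other 4 of the 6 tested of 11 fell (66.7%, against 22.7%). Nrgn stood at 0.018 CPM against 3.69 CPM and Clec1b at 0.725 CPM against 3.53 CPM. Itga2b stood at 0.343 CPM against 0.863 CPM and Gp9 at 0 CPM against 0.452 CPM, and Gp1bb was at 0.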

How the data were processed

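RNA of 6 libraries was analysed, 3 for each group. The authors deposited unnormalized gene counts, whole numbers that sum to 24842319 to 37552029 in each library; the submitters' processing notes name Salmon 1.5.2, featureCounts, Subread 2.0.1, STAR 2.7.9a and fastp 0.23.1, and their roles, the build, the annotation and the strand setting were not given in the sources used here. Groups came from the labels. Counts were compared with edgeR 4.0.16 in R 4.3.3 (filterByExpr with minimum count 10 and minimum total 15, TMM, robust quasi-likelihood fit with group as the only term, two-sided, Benjamini-Hochberg adjustment over 12488 genes, threshold 0.05). CPM values of genes use TMM-scaled totals and sums of marker lists use plain totals. Each standard error was taken as the size of the log2 fold change over the root of its F statistic, and intervals are 95%. Alternatives used DESeq2 1.42.0, limma-voom (limma 3.58.1), other scalings, filters and thresholds, a replicate block and each library left out. On simulated data, 12350 genes were tested for this comparison, with 50 genes changed at each fold. Recovered were 60% of genes changed by 1.25-fold, 72% by 1.5-fold, 94% by 2-fold and 100% by 4-fold, and 15 of 12151 unchanged genes were called. In the data 45.1% of genes passed the test, a far larger share than was changed in the simulation. The adjusted threshold was therefore stricter there, and the recovery shares do not give the sensitivity of the comparison itself. Full values are given for the members of each role with the smallest p, the largest and the smallest fold change and for all that were not called lower; of each pathway list up to 2 lower and 2 higher genes with the smallest p and at least 1 CPM are named. Members and lists were chosen with earlier results of these data known.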

Additional observations from a re-analysis of the deposited data

How the results depend on the processing

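Of the 27 members that fell, 23 did so under all 16 alternatives; Pola1, Pole, Rfc4 and Rpa2 did not, and 23 to 28 members were lower in any setting. With DESeq2 and with an adjusted p under 0.01 the members lower were 23 each. No member (0) was higher with upper quartile scaling, with DESeq2, without a filter on low counts or with an adjusted p under 0.01, and 0 to 1 with a library left out. The members' median was -0.25 with upper quartile scaling and -0.24 with a mean of at least 1 CPM, and between -0.24 and -0.21 with a library left out; upper quartile scaling moved the median of all genes to -0.025. Of the other replication factors 8 were lower by DESeq2, and 1 was higher with upper quartile scaling, by DESeq2 and with an adjusted p under 0.01, and 1 to 3 with a library left out. Of other nucleotide supply genes 1 was higher with upper quartile scaling and with an adjusted p under 0.01, and 2 to 5 were lower with a library left out. Of checkpoint genes 0 were higher with upper quartile scaling, DESeq2 or an adjusted p under 0.01, and 0 to 1 with a library left out. Members near 0 changed sign without passing the test: Ung was at -0.0057 and E2f1 at -0.018 with upper quartile scaling, E2f1 at -0.00025 with a mean of at least 1 CPM, and with a library left out Orc6 ran from -0.018 to 0.099, Prim2 from -0.10 to 0.050, Ung from -0.13 to 0.15 and E2f1 from -0.046 to 0.064. With the replicate number as a block, 26 members were lower (Rfc4 was not) and Ung was at -0.00098; same-numbered libraries did not deviate together (correlations -0.038, -0.089 and -0.013), so the number is not taken as a pairing. Orc1 (32 to 73), Cdc6 (35 to 61) and Ung (13 to 26) had few counts in all 6 libraries.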
